A study of Mus musculus with 8 samples.

Results

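The class III POU genes Pou3f1, Pou3f2, Pou3f3 and Pou3f4 and the non-coding gene 2900092D14Rik, which lies next to Pou3f3, were followed in the lungs of 8 mouse embryos, taken whole at embryonic day 14.5. These 5 genes were chosen by name out of 22180 genes on the array, with the results of the comparison below already known from earlier work on the same values, so that their differences between the genotypes are a description and not independent evidence. Where a gene had several probe sets, the one with the highest mean over the 8 arrays was to stand for it, but each of the 5 genes had 1 probe set, and this choice decided nothing. The 4 control embryos carried Shh-cre alone, and the 4 mutant embryos carried Shh-cre together with Ezh2-flox/flox. Both groups shared the Cre driver and a mixed C57BL/6 x 129S6 background. The Shh-cre driver is active in the lung epithelium, whereas the arrays measured RNA of the whole lung, in which mesenchyme, vessels, nerves and mesothelium are also present. In such bulk RNA, fewer cells of a type and less RNA per cell cannot be told apart. There were 4 litters with 2 embryos each and a single genotype per litter, so genotype and litter cannot be fully separated.

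POU factors bind DNA through a POU-specific domain joined to a homeodomain. The class III members are compact genes best known from the nervous system. Pou3f1 (Oct6) is needed for the timely myelination by Schwann cells, Pou3f2 (Brn2) and Pou3f3 (Brn1) act in neural progenitors and cortical neurons, Pou3f3 is also needed for the distal nephron of the kidney, and Pou3f4 (Brn4), on the X chromosome, is needed in the mesenchyme around the inner ear. Ezh2 is the methyltransferase of Polycomb repressive complex PRC2, which marks histone H3 at the CpG-rich promoters of many developmental regulators that are silent in a tissue. No histone mark was measured in these embryos.

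In the RefSeq gene order of assembly GRCm38.p6, 2900092D14Rik follows Pou3f3 on chromosome 1 with no gene between them and on the same strand. Pantr1, another non-coding gene of the locus, lies on the other side of Pou3f3, and Pantr2, on the opposite strand, lies beyond 2900092D14Rik. Pantr2 was not analysed here. The array's own genome build is not given in the sources used here. The start of Pou3f3 and the stretch between it and 2900092D14Rik are shown because these are the members that differed between the genotypes, and the starts of Pou3f2 and Pou3f4 because theirs did not pass the test. RefSeq's promoter table held 4 of the 5 genes, all but Pou3f1. For the Pou3f genes the 250 bases before the annotated start are printed 5′ to 3′ on the gene's own strand, with the letters CCAAT, or their complement ATTGG, in capitals. For 2900092D14Rik the lower case letters are the 125 bases between the annotated end of Pou3f3 and the start of the non-coding gene, and the capitals are its first 50 bases.

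Pou3f3 (GRCm38.p6, chr1:42695518-42695767, plus strand): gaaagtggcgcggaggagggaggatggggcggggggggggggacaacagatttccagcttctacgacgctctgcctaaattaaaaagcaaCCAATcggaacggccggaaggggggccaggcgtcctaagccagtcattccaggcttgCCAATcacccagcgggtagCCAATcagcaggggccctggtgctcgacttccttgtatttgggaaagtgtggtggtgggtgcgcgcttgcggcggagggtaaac
2900092D14Rik (GRCm38.p6, chr1:42700211-42700385, plus strand): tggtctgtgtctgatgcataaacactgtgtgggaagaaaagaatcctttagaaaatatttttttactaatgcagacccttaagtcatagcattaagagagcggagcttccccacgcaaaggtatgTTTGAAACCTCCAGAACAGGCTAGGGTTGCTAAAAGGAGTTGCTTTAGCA
Pou3f2 (GRCm38.p6, chr4:22488367-22488616, minus strand): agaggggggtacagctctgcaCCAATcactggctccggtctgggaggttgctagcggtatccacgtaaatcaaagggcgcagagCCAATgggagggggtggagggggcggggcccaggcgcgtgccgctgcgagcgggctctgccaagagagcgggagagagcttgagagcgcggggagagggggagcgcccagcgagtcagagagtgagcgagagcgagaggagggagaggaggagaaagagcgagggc
Pou3f4 (GRCm38.p6, chrX:110814129-110814378, plus strand): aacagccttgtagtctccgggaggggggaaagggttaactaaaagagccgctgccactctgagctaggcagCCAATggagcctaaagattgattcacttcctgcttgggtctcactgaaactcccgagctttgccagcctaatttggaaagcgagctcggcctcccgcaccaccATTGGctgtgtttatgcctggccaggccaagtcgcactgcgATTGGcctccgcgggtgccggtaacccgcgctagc

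The starts of the 3 Pou3f genes shown lie above the median window in GC content and in CpG. GC content was 60.8% before Pou3f3, 66.8% before Pou3f2 and 58% before Pou3f4, against a median of 52.4% over all 32851 windows of the same length in the table. The Pou3f3 window held 15 CpG dinucleotides, that of Pou3f2 held 18 and that of Pou3f4 held 13, where the median window held 6. In that order, 72.7%, 78.3% and 68.5% of all windows held fewer, so such counts are not rare. CCAAT, counted on both strands, occurred 3 times before Pou3f3, 3 times before Pou3f4 and 2 times before Pou3f2. At least 3 matches were present in 2.79% of all windows, at least 2 in 10.1% and at least 1 in 33.8%. The octamer ATGCAAAT, the textbook letters bound by POU factors, was searched on both strands and was in none of these 3 windows. It was in 1.6% of all windows. A match describes letters and is not a measured binding site. The stretch between Pou3f3 and 2900092D14Rik differed from these starts. Its 125 bases had a GC content of 40% and 2 CpG dinucleotides. In the last 125 bases of Pou3f3 the polyadenylation letters AATAAA, searched on the coding strand, occurred 1 time and ended 15 bases before the annotated end of the gene. The first 125 bases of 6.14% of all windows held these letters. Those windows lie before gene starts and other gene ends were not searched. The share therefore does not show how common the letters are at gene ends. The start of Pou3f3, which rose in mutants, thus resembled those of Pou3f2 and Pou3f4, which did not pass. All 3 held more CpG than the median window and several CCAAT matches. That of Pou3f1 was not available.

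In whole lung Ezh2 averaged 11.87 ± 0.05 (SD, n = 4) among controls and 11.78 ± 0.02 (SD, n = 4) among mutants (log2 values), and its difference was not called. All mutants lay below all controls for Ezh2, as held for 3.6% of all genes. Whether its probes lie in the floxed part is not known here, so it checks the genotype labels only weakly. Array medians ran from 7.05 to 7.12, and any pair of arrays correlated at 0.986 to 0.995 over all probe sets. Control 3 and mutant 3 lay farthest apart on the leading principal component (32.5% of the variance). Leaving out control 3 gave log2 changes of 0.73 for Pou3f3 and 1.47 for 2900092D14Rik, and leaving out mutant 3 gave 0.67 and 1.40, with both genes past the threshold in each case.

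Pou3f3 was higher in all mutant lungs. Its log2 expression was 7.31, 7.17, 7.33 and 7.34 in controls 1 to 4 and 8.01, 7.70, 8.13 and 8.16 in mutants 1 to 4. The controls lay close together, the lowest mutant, mutant 2, was 0.36 above the highest control, and the spread was wider among mutants. Controls averaged 7.29 ± 0.08 (SD, n = 4), and mutants averaged 8.0 ± 0.21 (SD, n = 4). This is a log2 change of 0.71 ± 0.10 (SE), a 1.64-fold difference (95% interval 1.40 to 1.92). Its adjusted p was 0.00718 (limma, Benjamini-Hochberg over all genes). Among mutants, litter 4 had a mean log2 value of 8.15 and litter 3 one of 7.85, and both exceeded the control litters at 7.24 and 7.34. The call was lost when control litter 1 was left out (adjusted p = 0.0534) and when mutant litter 4 was left out (adjusted p = 0.0549, limma with Benjamini-Hochberg), with log2 changes of 0.66 and 0.57.

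The non-coding neighbour 2900092D14Rik had the wider separation. Probe positions were not used here, and since this gene starts 125 bases after the annotated end of Pou3f3 on the same strand, its own transcript and longer Pou3f3 transcripts cannot be told apart in its values. Its log2 expression was 5.90, 6.24, 6.24 and 5.83 in controls 1 to 4 and 7.63, 7.33, 7.47 and 7.39 in mutants 1 to 4. Every mutant was at least 1.09 above the highest control, which is more than the whole range of the controls (0.41) or of the mutants (0.30). The means were 6.05 ± 0.22 (SD, n = 4) and 7.46 ± 0.13 (SD, n = 4). The log2 change of 1.41 ± 0.12 (SE) corresponds to a 2.65-fold difference (95% interval 2.20 to 3.18). Its adjusted p was 0.000185 (limma, Benjamini-Hochberg over all genes). By size of increase it stood at place 9 of the 22180 genes and Pou3f3 at place 48. The litter means were 6.07 and 6.03 in controls and 7.48 and 7.43 in mutants, so littermates shared no visible offset. Within each genotype the 2 neighbours did not keep the same order of embryos. Mutant 2 was lowest for both, but mutant 1 was highest for 2900092D14Rik and below mutants 3 and 4 for Pou3f3, and control 4 was lowest for 2900092D14Rik and highest for Pou3f3.

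**Figure D1:**
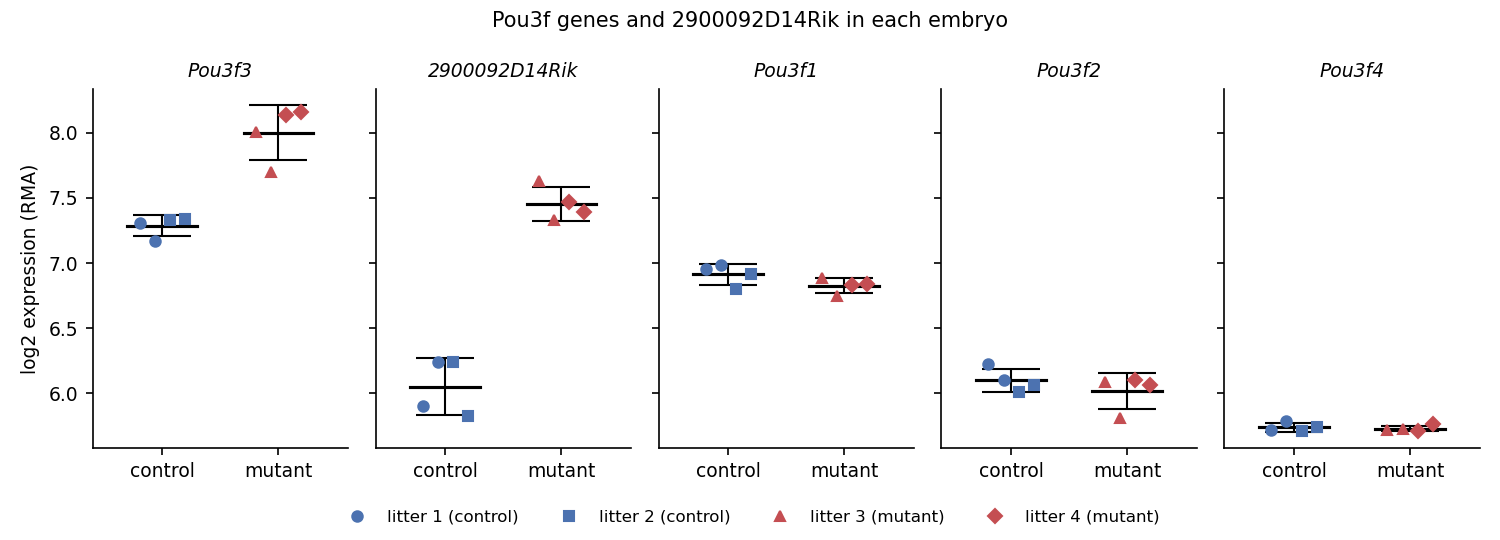
Log2 expression (vertical axis, RMA values) of the 5 genes in each of the 8 embryos, by genotype; points are embryos, their shapes litters, the long bar the mean and the capped bars 1 SD (n = 4 per group). Mutants lie above all controls for Pou3f3 and 2900092D14Rik and overlap them for Pou3f1, Pou3f2 and Pou3f4; levels are not comparable between genes, since each has its own probes.

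The other 3 class III genes did not pass the test. Pou3f1 had log2 values of 6.95, 6.99, 6.80 and 6.92 in controls and 6.89, 6.75, 6.83 and 6.84 in mutants, and the groups overlapped. Its log2 change was −0.09 ± 0.06 (SE), with a 95% interval of −0.23 to 0.05 and an adjusted p of 0.741 (limma, Benjamini-Hochberg). Pou3f2 had 6.22, 6.10, 6.01 and 6.06 in controls and 6.09, 5.81, 6.11 and 6.06 in mutants. Mutant 2 was the lowest embryo, and the remaining 3 mutants lay within the range of the controls. Its log2 change was −0.08 ± 0.08 (SE), with a 95% interval of −0.27 to 0.10 and an adjusted p of 0.807 (limma, Benjamini-Hochberg). Pou3f4 had 5.72, 5.79, 5.71 and 5.74 in controls and 5.72, 5.73, 5.71 and 5.76 in mutants, the narrowest spread of the 5 genes. Its log2 change was −0.01 ± 0.05 (SE), with a 95% interval of −0.13 to 0.11 and an adjusted p of 0.974 (limma, Benjamini-Hochberg). These intervals leave room for small differences of either sign, and the gene-wise intervals of all 3 end below the lower bound for Pou3f3, 0.49 on the log2 scale. The differences between members were not tested.

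Of the 5 genes, 2 thus rose, 0 fell and 3 did not pass, where 0.604% of all genes rose and 0.248% fell at the same threshold. All mutants lay above all controls for 2 of the 5 genes and below them for 0, which over all genes held for 4.48% and 3.6%. Since the genes were grouped with these results known, nothing is read from these shares. The mean log2 value of Pou3f3 over the 8 arrays lay at percentile 51.1 of all genes, that of Pou3f1 at 38.7, of 2900092D14Rik at 36.5, of Pou3f2 at 24.3 and of Pou3f4 at 19.4. The values came with no detection calls, and RMA draws differences of dim probe sets towards 0. A low value of Pou3f1, Pou3f2 or Pou3f4 is therefore not read as absence of the transcript, nor as evidence that it is unchanged.

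**Figure D2:**
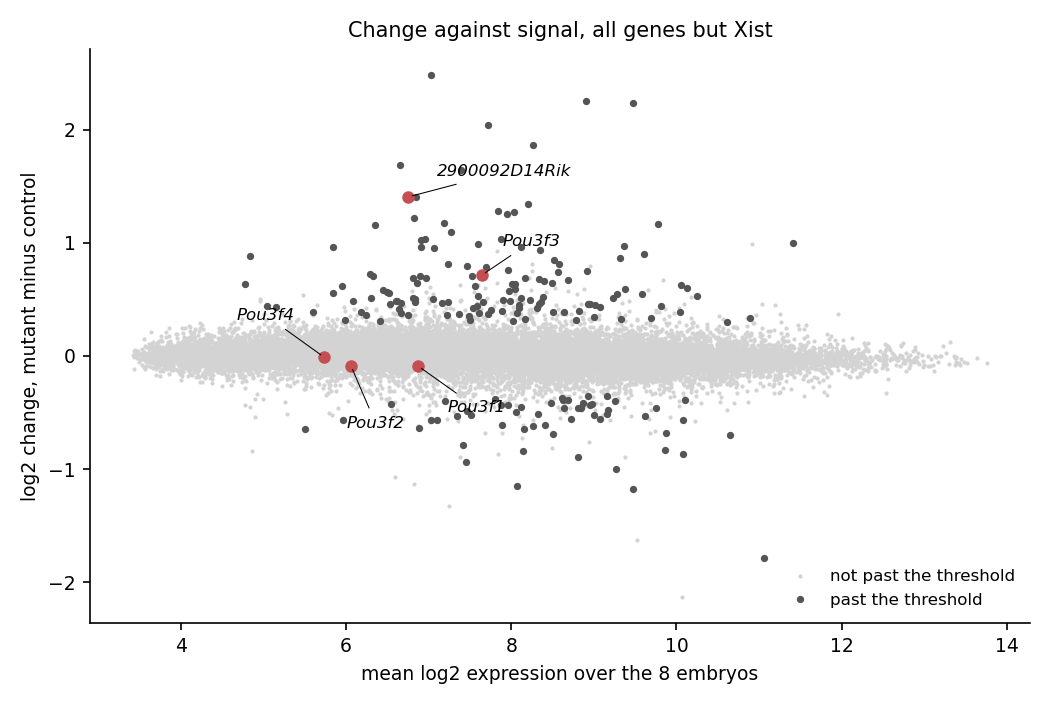
Log2 change between mutants and controls (vertical axis) against the mean log2 expression over the 8 embryos (horizontal axis) for all genes but Xist; each point is a gene, dark points passed an adjusted p of 0.05, and the 5 named genes are in red. Pou3f3 (0.71) and 2900092D14Rik (1.41) lie among the genes that passed, and Pou3f1, Pou3f2 and Pou3f4 lie in the band around 0.

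The locus of Pou3f3 was then followed outward. Pantr1, the non-coding gene on the other side, had log2 values of 6.05, 6.17, 6.47 and 6.32 in controls and 6.47, 6.40, 6.53 and 6.47 in mutants. Controls 1 and 2, which are littermates, were low, and control 3 reached the level of the mutants. Its log2 change was 0.22 ± 0.09 (SE) and it did not pass (adjusted p = 0.448, limma with Benjamini-Hochberg). The change was 0.36 without control litter 2 and 0.07 without control litter 1. The next tested gene on that side was 4930448I06Rik with a log2 change of −0.002 and then Tmem182, a transmembrane protein gene, with −0.30. Beyond 2900092D14Rik came Mrps9, a mitochondrial ribosomal protein gene, with −0.07, and Gpr45, an orphan receptor gene, with 0.22. None of these passed. Tmem182 had an adjusted p of 0.448 and Gpr45 of 0.308 (limma, Benjamini-Hochberg). In this row of 7 tested genes, Pou3f3 and 2900092D14Rik, which adjoin, were the 2 that passed. The row is not contiguous, since it skips 13 untested genes on the side of Pantr1 and 4 on the other. Among the genes skipped were Gm46091, next to Pou3f3, and Pantr2 and Dalir, beyond 2900092D14Rik.

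Around the 4 Pou3f genes, the 3 nearest tested genes on each side made 23 genes besides 2900092D14Rik. None of them passed by limma, where 0.604% of all genes rose and 0.248% fell. An unadjusted p under 0.05 was found for 5 of the 23, and for 9.87% of all genes. Their median log2 change was −0.03, against 0.007 over all genes, and 8 of 23 had a change above 0, against 52.9% of all genes. Of the tested genes next to Pou3f4 on the X chromosome, Gm7134 had a log2 change of −0.16 and Cylc1 of −0.01. Hmgn5 and Rps6ka6, which lie farther out on either side, had log2 changes of −0.20 and −0.30. For these 2 of the 23 genes all mutants lay below all controls, as held for 3.6% of all genes. For 0 of the 23 all mutants lay above, against 4.48% of all genes. Neither Hmgn5 nor Rps6ka6 passed, at adjusted p of 0.441 and 0.199 (limma, Benjamini-Hochberg). When Xist was added to the model as a marker of sex, Rps6ka6 passed, at an adjusted p of 0.0375 (limma, Benjamini-Hochberg). That setting called 361 genes higher and 313 lower, against 134 and 55 in the main setting. Shh, Epcam and Chga, described below, passed in that setting too. Xist was low in controls 1 and 2 and in mutant 3 and high in the other 5 embryos. Pou3f4, on the same chromosome, had 5.72, 5.79 and 5.71 in the 3 embryos with low Xist and 5.71 to 5.76 in the others, so its values did not separate by Xist level.

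**Figure D3:**
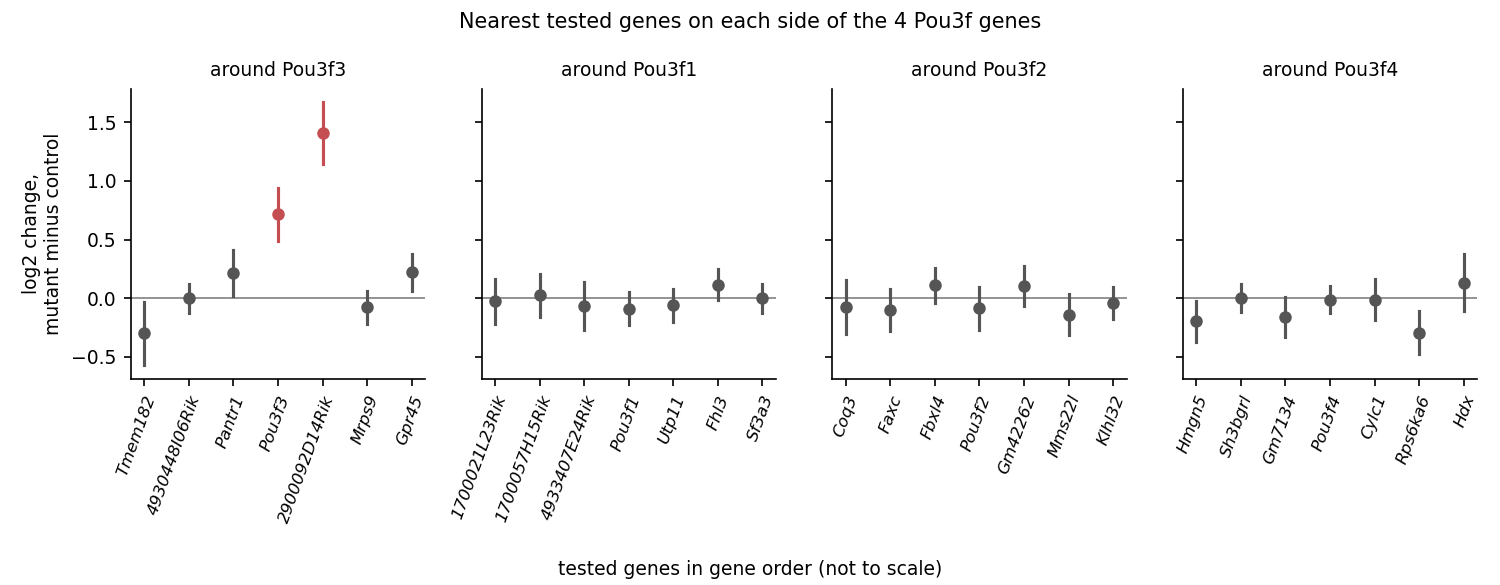
Log2 change between mutants and controls (vertical axis) for each Pou3f gene and the 3 nearest tested genes on each side, in gene order along the chromosome and not to scale; points are changes, lines 95% intervals, and red marks an adjusted p under 0.05. Pou3f3 and 2900092D14Rik (0.71 and 1.41) stand above the 5 other tested genes of their row, whose changes run from −0.30 to 0.22.

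Other POU genes were compared as relatives with the same kind of DNA-binding domain. Of 11 genes, listed with earlier results of these data known, 7 were tested, and the others were not analysed here. Of the 7, 0 rose and 0 fell by limma, against 0.604% and 0.248% of all genes, and 7 did not pass. Among these 7, 1 had an unadjusted p under 0.05 (9.87% of all genes). Their median log2 change was 0.13, against 0.007 over all genes. Pou4f1 (Brn3a), a regulator of sensory neurons, had the largest difference. Its log2 values were 6.40, 6.23, 6.31 and 6.50 in controls and 6.59, 6.64, 6.95 and 6.57 in mutants. All mutants lay above all controls, as held for 4.48% of all genes. The log2 change of 0.33 ± 0.10 (SE) did not pass (adjusted p = 0.268, limma with Benjamini-Hochberg). Pou5f1 (Oct4), a pluripotency factor, had a log2 change of 0.20, Pou2f3, the regulator of tuft cells, 0.18, and Pou2f2 (Oct2), a factor of B cells, 0.13. Among all 11 measured POU genes, Pou3f3 was the only one that passed, and it was chosen with its result known. The 95% intervals of Pou3f3 (0.49 to 0.94) and Pou4f1 (0.10 to 0.55) overlapped, and their difference was not tested.

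**Figure D4:**
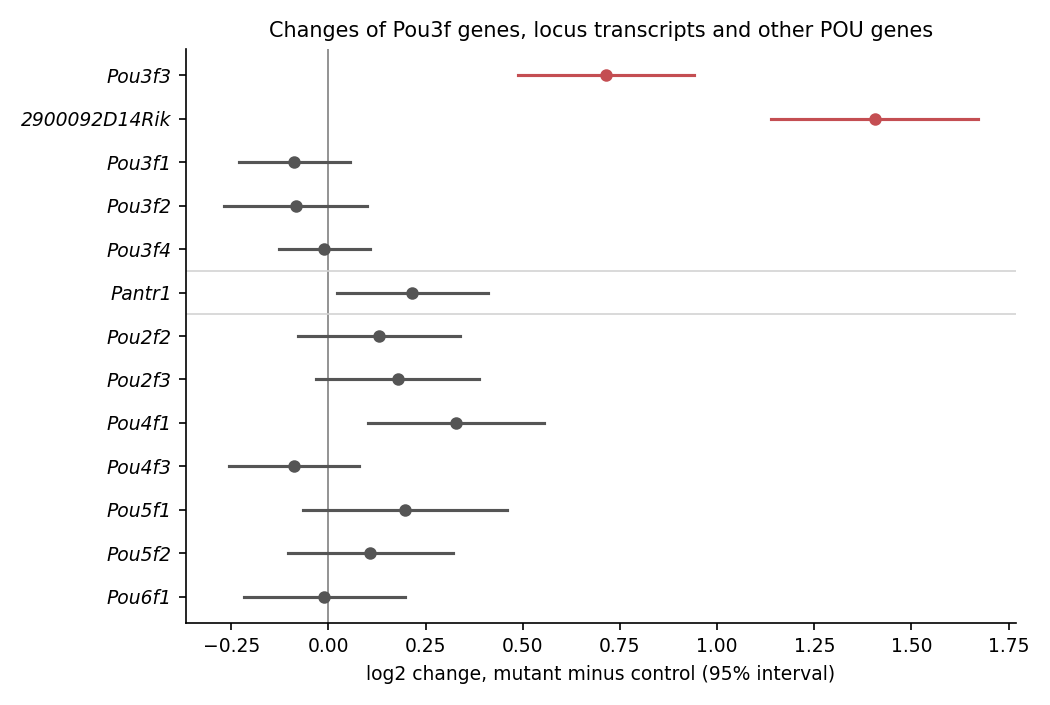
Log2 change between mutants and controls with its 95% interval (horizontal axis) for the 5 named genes (top), Pantr1 (middle) and the 7 other tested POU genes (bottom); red marks an adjusted p under 0.05. The points of Pou3f3 and 2900092D14Rik lie to the right of all others, of which Pou4f1 (0.33) is the highest. The intervals of Pou3f3 and Pou4f1 overlap.

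Partners and textbook targets of class III POU factors were read next. Of 14 genes, listed with earlier results of these data known, 12 were tested. Of these 0 rose, 0 fell and 12 did not pass by limma, with 3 at an unadjusted p under 0.05 (9.87% of all genes). Over all genes 0.604% rose and 0.248% fell, so nothing is read from the absence of calls. The median log2 change was −0.002. Mitf, the pigment cell regulator, had a log2 change of 0.18, and Sox21, a SoxB factor, 0.17. Nes, the intermediate filament nestin of neural progenitors, had log2 values of 9.07, 9.03, 9.06 and 9.06 in controls and 9.17, 9.20, 9.13 and 9.24 in mutants. All mutants lay above all controls for Nes, as held for 4.48% of all genes. Its log2 change of 0.13 did not pass (adjusted p = 0.448, limma with Benjamini-Hochberg). Sox2, a partner of these factors that is also an airway regulator, had −0.03 and did not pass.

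Pou3f genes are also active in tissues other than lung, and markers of such tissues were read beside them. The lung itself was well represented, with mean control log2 values of 12.85 for the surfactant gene Sftpc, 10.79 for the lung regulator Nkx2-1 and 11.95 for the mesenchymal regulator Tbx5. In each list below, the count at an unadjusted p under 0.05 is to be set beside 9.87% of all genes, and those with all mutants above or below all controls beside 4.48% and 3.6%. Counts of genes that rose or fell are to be set beside 0.604% and 0.248% of all genes. The lists were chosen with earlier results of these data known, so nothing is read from these shares. Among 14 tested markers of neurons, neural crest and glia, 0 rose and 1 fell, Ret, a receptor of enteric and other crest cells, which fell by 0.43 on the log2 scale. The call of Ret was lost in 5 of 23 alternatives, among them littermates averaged and control 4, litter 2 or litter 3 left out, with adjusted p up to 0.0795 (limma, Benjamini-Hochberg). In this list 4 genes had an unadjusted p under 0.05. All mutants lay below all controls for Ret and for Erbb3, a receptor of crest and glial cells (log2 change −0.23), and above them for the neuronal genes Stmn2 (0.25) and Snap25 (0.19). The other crest and glial genes tested did not pass, with log2 changes of 0.003 for Sox10, 0.04 for Foxd3, −0.05 for Fabp7, −0.06 for S100b and −0.07 for Cdh19. The list had a median log2 change of −0.004, and 7 of its 14 genes had a change above 0, against 52.9% of all genes. Its mean log2 value ran from 7.16 to 7.33 in controls and from 7.19 to 7.25 in mutants. None of 7 tested neuroendocrine markers passed by limma, with 1 at an unadjusted p under 0.05, and their mean log2 value was 6.85 to 6.90 in controls and 6.87 to 7.02 in mutants. All mutants lay above all controls for 1 of them, Chga (log2 change 0.25).

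Among 7 kidney tubule markers 1 rose, Pax2, a regulator of kidney and other epithelia, by 0.70 ± 0.08 (SE) on the log2 scale, 0 fell and 6 did not pass, with 2 at an unadjusted p under 0.05 and with all mutants above all controls (Pax2 and Pax8). The list's mean log2 value was 6.52 to 6.57 in controls and 6.66 to 6.83 in mutants. Pax8 had 0.19, and Umod and Slc12a1, which mark the nephron segment that needs Pou3f3, had 0.07 and 0.10 and did not pass. Among 13 markers of stratified epithelium 4 rose, Krt15, Krt4, Pax9 and Trp63, 0 fell and 9 did not pass. Their log2 changes were 2.04, 1.22, 0.78 and 0.71, and for each of the 4 genes all mutants lay above all controls, as for Pou3f3 and 2900092D14Rik. Over all 13 the median change was 0.12 (log2), and the mean log2 value was 6.55 to 6.75 in controls and 7.02 to 7.14 in mutants. Krt13, Krt14 and Krt1, other keratins of this list, were among those that did not pass, with log2 changes of −0.01, −0.06 and 0.13. Log2 array values have no true zero, so no marker can be said to be at 0. Among 10 lung epithelial markers 1 fell, Foxa1, by 0.56 on the log2 scale, with list means of 10.28 to 10.41 in controls and 10.20 to 10.26 in mutants. In this list 4 genes had an unadjusted p under 0.05. All mutants lay below all controls for Foxa1 and also for Shh (log2 change −0.28), Epcam (−0.26) and Foxa2 (−0.20), which did not pass in the main setting. Among 8 lung mesenchymal markers 0 passed by limma and 1 had an unadjusted p under 0.05, with list means of 10.86 to 10.94 and 10.94 to 11.01. All mutants lay above all controls for Pdgfra (log2 change 0.21) and Col1a1 (0.25). The part of these tissues in the values of the Pou3f locus was not tested.

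The genes whose values most resembled those of the 2 members over the 8 embryos were then listed by Pearson correlation, with no test, since a shift between the genotypes alone makes any 2 changed genes correlate. Nearest to Pou3f3 were Sesn2, a stress-responsive sestrin, Rasgrf1, a Ras exchange factor, Taok3, a kinase, and Ovol1, an epithelial transcription factor, at r of 0.990, 0.987, 0.986 and 0.981. After each genotype's mean was taken away the same 4 had r of 0.933, 0.911, 0.912 and 0.870. Nearest to 2900092D14Rik were Clca3b, Hoxb7, a Hox factor, Dapl1 and Fut10, at r of 0.996, 0.989, 0.986 and 0.985, and at 0.904, 0.745, 0.641 and 0.706 after centring. All 8 had passed the test as higher in mutants in the main setting. The 4 nearest to Pou3f3 each lost the call with littermates averaged, without litter 1 and without litter 4, and Taok3 lost it in 11 and Sesn2 in 8 of 23 alternatives. Between the 2 neighbouring genes r was 0.912, and 0.02 after centring, and by likeness over all genes 2900092D14Rik stood at place 138 for Pou3f3 and Pou3f3 at place 141 for 2900092D14Rik. For Pou3f1 the nearest were Cryge, Slfn14, Thsd4 and Vmn1r157 (r 0.915 to 0.959), for Pou3f2 Akain1, Trdn, Apol8 and Gja5 (0.950 to 0.978), and for Pou3f4 Olfr27, Olfr1160, Capn5 and Skiv2l (0.943 to 0.983). None of these 12 passed the test between the genotypes, and with 8 embryos and 22180 genes such values carry little information.

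Pou3f3 passed the test in 21 of 23 alternatives, and 2900092D14Rik in 22 of 22.

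**Figure D5:**
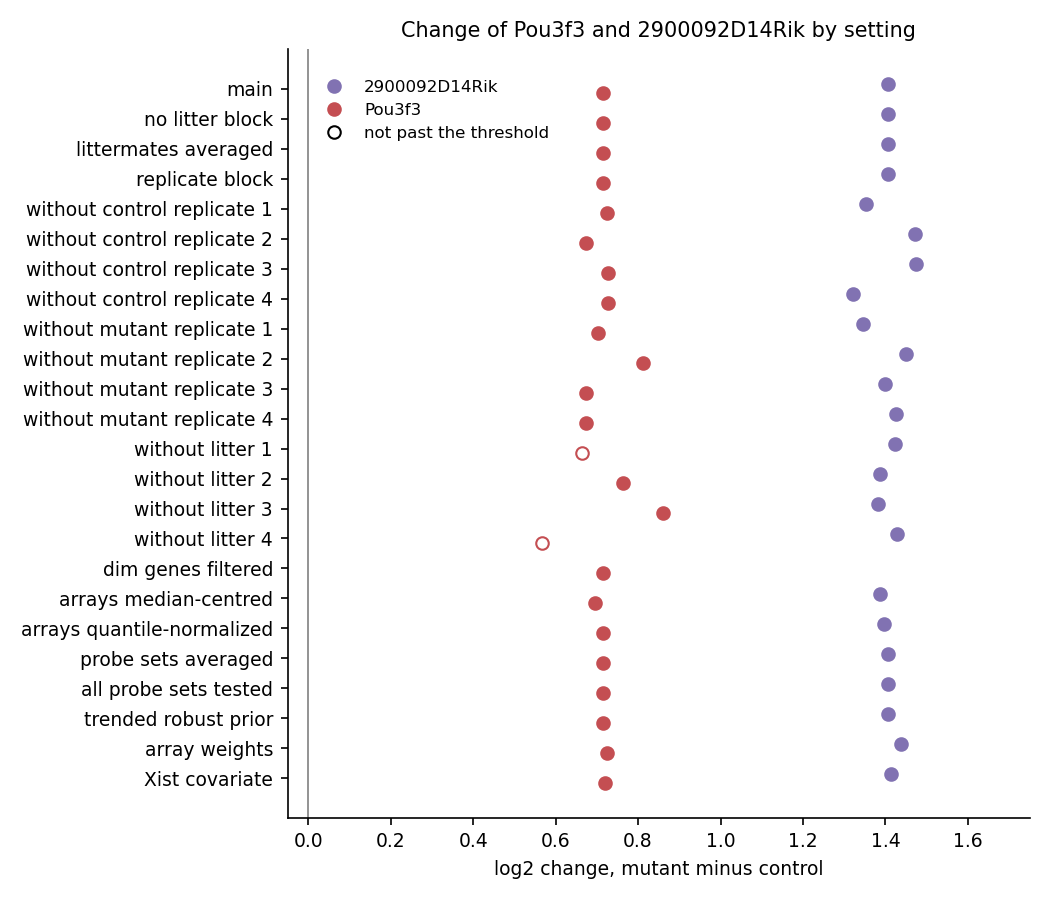
Log2 change of Pou3f3 and 2900092D14Rik between mutants and controls (horizontal axis) under the main setting and each alternative (rows); filled points passed an adjusted p of 0.05 and open points did not. The change of Pou3f3 runs from 0.57 to 0.86 and that of 2900092D14Rik from 1.32 to 1.47, and the latter has no point under the filter on dim genes, which removes it.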

How the data were processed

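RNA of 8 whole lungs (100 ng each, primed with poly(T) and amplified with biotin label) was measured on 1 Affymetrix array per embryo. The deposited log2 values per probe set were made with RMA in oligo, per the submitters' processing notes; no version, option or build is named in the labels. Of 41345 probe sets, 23521 had 1 gene symbol, 1814 several, and 16010 were not listed. The probe set with the highest mean stood for each of 22180 genes. The genotype comparison used limma 3.58.1 (R 4.3.3) and treated litter as random through duplicateCorrelation (0.153), two-sided, with Benjamini-Hochberg adjustment over all genes and a threshold of 0.05. The members, gene lists and tests were chosen with earlier results of these data known. Named genes were the members, up to 4 of each list by size of change, the 3 nearest tested genes on each side in RefSeq order, and the 4 most correlated genes with ordinary names. Some further list genes, such as Sox2, Umod, Krt13, Krt14, Krt1, Sftpc and Nkx2-1, were named outside this rule. The fit was tested on simulated data, where false calls were somewhat more frequent than the threshold allows and many of the smallest changes were missed. Alternatives covered litters, embryos, a filter on dim genes (40th percentile), scaling, probe sets, prior, weights and Xist. The embryos are separate animals, littermates share a dam, and 8 arrays limit the precision. Promoters came from RefSeq (GRCm38.p6). Figures used Python 3.11.15 and matplotlib 3.10.9.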

Additional observations from a re-analysis of the deposited data

Results flagged for a closer look

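In 16 of 250 groups of 4 embryos, 1 embryo lay far from the other 3, where chance gives about 1 in 20, or 12.5. Of the class III POU genes this held for Pou3f2, which was lowest in mutant 2 at a log2 value of 5.81. Mutant 2 was also lowest for Id2 (12.33), Lgals7 (6.71), Cryge (4.15), Thsd4 (8.77) and Rasgrf1 (6.63) and highest for Krt1 (6.51). Cryge and Thsd4 had been named for their likeness to Pou3f1 and Rasgrf1 for its likeness to Pou3f3. Control 3 was highest for Fabp7 (10.37), Foxa2 (9.44), Epcam (11.32), Tcf21 (11.22) and Dapl1 (7.43) and lowest for Krt13 (6.08) and Cryge (4.17). Mutant 1 was lowest for Tbx4 (11.23) and mutant 3 for Krt15 (8.45). No group of Pou3f1, Pou3f3, Pou3f4 or 2900092D14Rik held such a value.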

How the results depend on the processing

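Of the 5 genes, 2 passed as higher in mutants and 0 as lower in the main setting and in 20 of 23 alternatives. The number higher was 1 without litter 1, 1 without litter 4 (Pou3f3 lost in both) and 1 with dim genes filtered, where 2900092D14Rik was not tested. Pou3f3 had log2 changes of 0.57 to 0.86 and adjusted p of 0.000332 to 0.0549, and 2900092D14Rik 1.32 to 1.47 and 4.60e-05 to 0.00272, by limma with Benjamini-Hochberg adjustment. Pou3f1, Pou3f2 and Pou3f4 passed in 0 of 22 alternatives each. Over all genes, 134 were higher and 55 lower. Each embryo left out in turn gave 73 to 157 higher and 28 to 75 lower, the lowest counts without mutant 4 and the next, 89 and 32, without control 4. With littermates averaged the counts were 65 and 33, without litter 4 they were 75 and 23, with all probe sets tested 77 and 26, and with the Xist covariate 361 and 313. The number lower was 95 with no litter block and 90 without litter 1. The causes were not tested. With the replicate number as a block (replicate block) 140 were higher and 55 lower, with both members kept; same-numbered embryos of the 2 genotypes are not paired by the labels, and their deviations correlated at −0.27 to 0.03. Dim signal limits what can be seen for Pou3f1, Pou3f2, Pou3f4 and 2900092D14Rik, which the filter on dim genes removed.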
